A study of Homo sapiens with 6 samples.

Results

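The genes described here encode the enzymes and transporters by which a cell takes up glucose, breaks it down to pyruvate and lactate, diverts it into the pentose phosphate pathway or stores it as glycogen. They were taken by symbol from the deposited expression table: 38 symbols given for this set plus pyruvate kinase, listed there under its older symbol PKM2, which makes 39 of the 34694 genes in the table. They were measured with Illumina expression arrays in SCC25, a widely used human line derived from an oral squamous tumour. The 3 control arrays held total RNA of untreated cells and the 3 aspirin arrays RNA of cells treated with 2.0 mM aspirin, which acetylates and blocks cyclooxygenases, and both groups were grown for 72 h. Both groups are the same line, and no genotype or other agent is named. Replicates 1 and 3 of both groups were on chip 1 and replicate 2 of both on chip 2. Whether the replicates came from separate cultures is not given, and p-values here therefore reflect no more than the scatter of these samples, which may be technical.

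Glycolysis converts glucose to pyruvate. Hexokinase and phosphofructokinase commit the sugar, aldolase splits it into trioses, and the steps from glyceraldehyde-3-phosphate to pyruvate yield ATP and NADH. Lactate dehydrogenase reduces pyruvate to lactate and returns NAD, monocarboxylate transporters export the lactate, and the pyruvate dehydrogenase complex instead feeds pyruvate to the mitochondria. The pentose phosphate pathway branches off at glucose-6-phosphate and supplies NADPH and ribose. Many tumours use glucose rapidly and release lactate even when oxygen is present, and several of these enzymes are known targets of the hypoxia-inducible factor HIF1 and of MYC.

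The median deposited signal per array was 101.9 to 127.0 intensity units over a background mean of 95.4 to 115.7, and 14691 to 15170 genes were detected per array. All 11 markers of squamous epithelium listed for this check, among them KRT5, KRT14 and TP63, were above background on all 6 arrays, though 4 of the 10 tested, KRT5, KRT14, SFN and DSG3, fell with aspirin and the summed normalised signal of the list was 54279 to 60456 in controls and 39431 to 45784 with aspirin. Of 7 fibroblast markers the 4 that could be tested, COL1A1, COL1A2, DCN and LUM, all fell with aspirin. Their summed normalised signal with the other 3 was 513 to 955 in controls and 244 to 275 with aspirin. COL1A1, COL1A2 and LUM were above background on all 6 arrays, COL3A1 on 2 controls and no aspirin array, and PDGFRB and THY1 on none. DCN was above background on 3 controls and no aspirin array, so it could be tested only through the controls. The 6 leukocyte markers summed to 386 to 597 in controls and 268 to 334 with aspirin, and CD14 was above background on all 6 arrays and fell (-0.94, adjusted p = 0.0266), CD79A was above background on 3 controls and 1 aspirin array, and PTPRC, CD3E, LYZ and TYROBP on none. Of the 4 endothelial markers, which summed to 86 to 127 in controls and 90 to 102 with aspirin, PECAM1 and VWF were above background on 2 controls and no aspirin array, and CDH5 and KDR on no array. The part of these marker shifts in the results below was not tested.

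Of the 39 genes, 35 passed the filter on detection, which asks for a detection score above 0.95 on at least 3 arrays. Hexokinase 1 (HK1) and the epimerase RPE missed it although their signals were above background on all 6 arrays, and PDK1 and SLC16A1 were not above background on any array. 10 of the 35 genes fell with aspirin, 4 rose and 21 did not pass the test, where 20.2% of all genes tested changed in either direction. The threshold was an adjusted p under 0.05 by limma's moderated test with Benjamini-Hochberg adjustment over all 15128 genes tested. Over all those genes 9.72% fell and 10.5% rose, against 28.6% and 11.4% of the 35, so the share that rose was near that of all genes. All 3 aspirin arrays lay below all 3 controls for 14 of the 35 genes (40.0%, against 18.2% of all genes) and above them for 9 (25.7%, against 20.6%). The median difference was -0.10 on the log2 scale, where it was 0.02 over all genes tested. All values below are log2 levels of normalised signal, or differences between them, aspirin minus control, ± SE with n = 3 arrays per group.

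**Figure D1:**
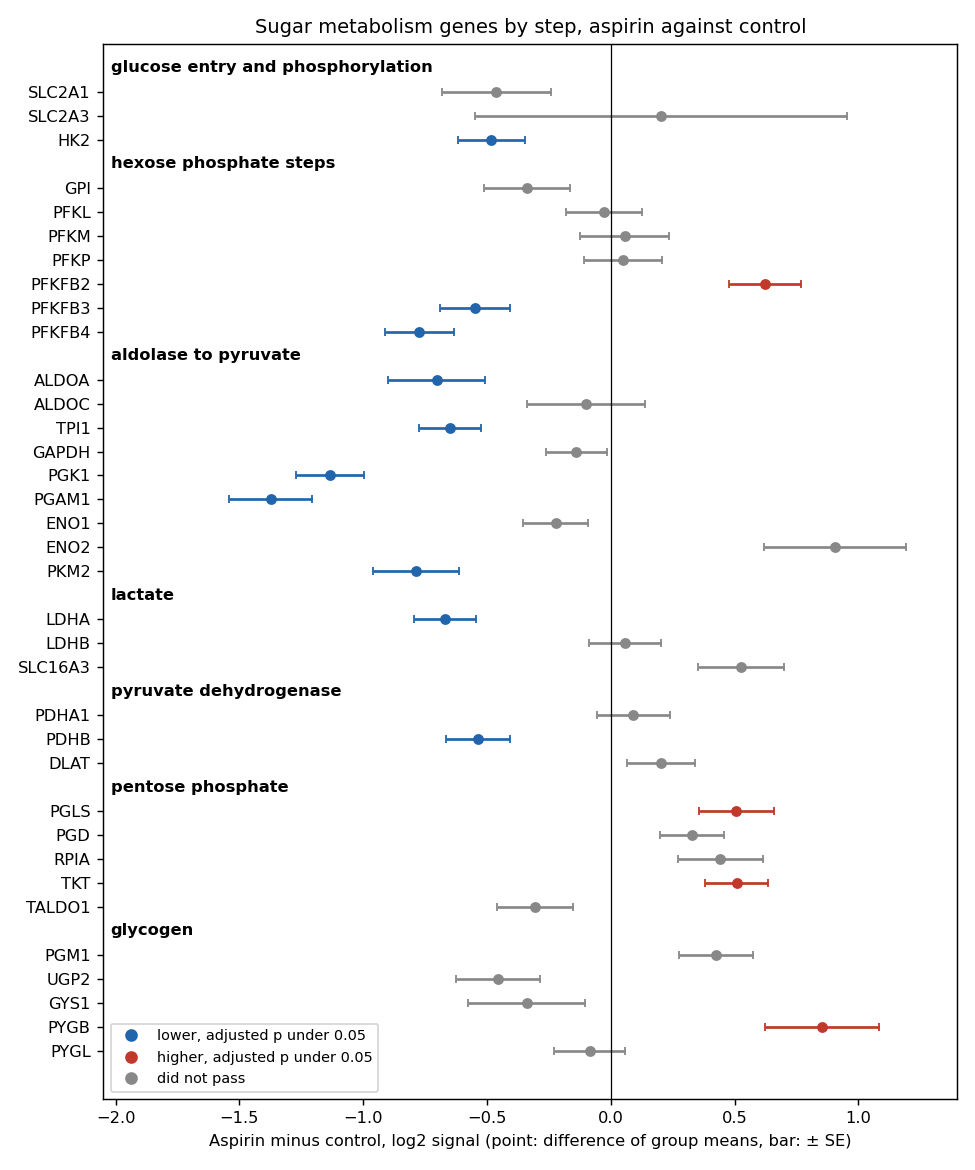
Difference between aspirin and control in log2 signal (x axis, points with SE bars, 3 arrays per group) for the 35 genes tested, ordered by step of sugar metabolism (y axis). Blue genes fell and red genes rose at an adjusted p under 0.05; of the 9 genes from aldolase to pyruvate 5 are blue, with PGAM1 lowest at -1.37, and 4, among them ENO2 at 0.90, did not pass.

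The fall was largest in the section from aldolase to pyruvate, where 5 of 9 genes fell and 0 rose, beside 9.72% and 10.5% of all genes tested. The median difference of the section was -0.65. PGAM1, the phosphoglycerate mutase that moves the phosphate group of 3-phosphoglycerate, had levels of 11.86, 11.54 and 11.71 on controls 1 to 3 and of 10.58, 10.09 and 10.31 on aspirin arrays 1 to 3. Every aspirin array lay well below every control, and the deposited signal, background included, went from 3286.5 to 4053.9 units in controls to 1224.9 to 1359.7. The difference was -1.37 ± 0.17 (adjusted p = 0.00134), a 2.59-fold fall. PGK1, the phosphoglycerate kinase that makes the first ATP of the pathway, stood at 11.56, 11.60 and 11.34 in controls and at 10.43, 10.40 and 10.27 with aspirin. Its arrays agreed closely within each group and the fall was 2.20-fold (-1.14 ± 0.14, adjusted p = 0.00131). These 2 of the 35 genes tested were the only members to pass the test and fall by at least 1 log2 unit. Of all 15128 genes tested, 3.45% did so.

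TPI1, the triosephosphate isomerase that interconverts both products of aldolase, had control levels of 12.54, 12.56 and 12.52 and aspirin levels of 11.86, 11.84 and 11.97. The groups were far apart for their spread, with a difference of -0.65 ± 0.12 (adjusted p = 0.00877). Pyruvate kinase (PKM2), which makes pyruvate and the second ATP, had 10.11, 9.66 and 9.93 in controls and 9.32, 8.89 and 9.13 with aspirin. Here the order of the replicates was the same in both groups, and the difference within each same-numbered pair was -0.79, -0.77 and -0.80. The fitted difference was -0.79 ± 0.17 (adjusted p = 0.0151). The table gives 1 value for this gene, so the PKM1 and PKM2 splice forms are not separated here. ALDOA, the main aldolase outside liver and brain, behaved alike: 11.53, 10.93 and 11.24 in controls, 10.80, 10.29 and 10.51 with aspirin, and -0.70 ± 0.20 (adjusted p = 0.0379). PKM2 no longer passed when control 3, aspirin 2 or aspirin 3 was removed (adjusted p up to 0.0549), nor ALDOA when control 1, control 3, aspirin 2 or aspirin 3 was removed (up to 0.117). ALDOA also missed the threshold (adjusted p = 0.0900) when the background was estimated over every gene in the table. This setting is called the all-gene background from here on. It is a severe one: its mean ran from 132.3 to 174.6 units per array, while array medians of the deposited signal ran from 101.9 to 127.0. For genes dimmer than that mean, a small difference under this setting does not tell whether a change is fragile. PGK1, PGAM1 and TPI1 passed without any 1 of the 6 arrays.

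GAPDH, which oxidises glyceraldehyde-3-phosphate and often serves as a reference gene, had levels of 12.89, 12.77 and 12.85 in controls and of 12.72, 12.67 and 12.69 with aspirin. All 3 aspirin arrays were slightly lower, but the difference of -0.14 ± 0.12 did not pass (adjusted p = 0.477). ENO1, the main enolase of most cells, likewise had 13.30, 13.51 and 13.53 against 13.23, 13.27 and 13.18, a difference of -0.22 ± 0.13 (adjusted p = 0.276). Both genes were among the brightest of the arrays. ENO1 had a deposited signal of 8503.7 to 13576.5 units where the highest signal of an array was 12407.8 to 16028.1. Aldolase C (ALDOC), the brain-type isozyme, had a difference of -0.10 ± 0.24 (adjusted p = 0.814), with levels from 9.59 to 10.22 in controls and from 9.35 to 10.17 with aspirin that overlapped.

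ENO2, the enolase known from neurons, was the only one of the 9 genes with a difference above 0. Its levels were 6.07, 6.77 and 6.89 in controls and 6.96, 7.58 and 7.91 with aspirin. Each aspirin array was above every control, though aspirin replicate 1 only just. The difference of 0.90 ± 0.29 did not pass (adjusted p = 0.0578), but the gene passed as higher with the replicate number as a block (adjusted p = 0.00140), since the 3 pairs gave 0.88, 0.81 and 1.02. It also passed without aspirin replicate 1. Its difference shrank to 0.21 under the all-gene background.

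**Figure D2:**
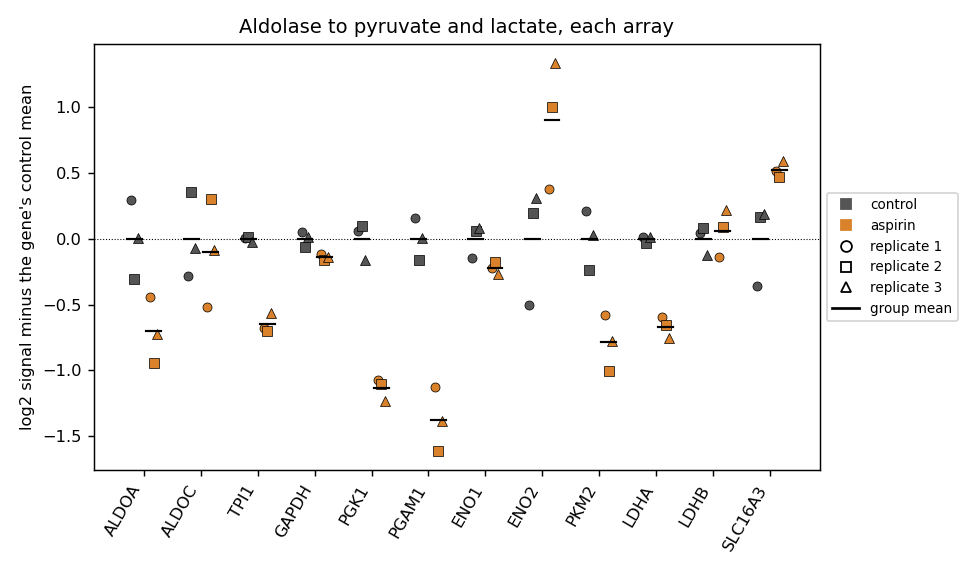
Level of each gene from aldolase to lactate on each array, as log2 signal minus the control mean of the gene (y axis), with controls in grey, aspirin in orange, a marker shape per replicate and group means as lines. PGAM1 and PGK1 lie lowest with aspirin, at -1.37 and -1.14, whereas GAPDH, ENO1, ALDOC and LDHB stay near 0 and ENO2 and SLC16A3 lie above it.

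At the lactate step LDHA fell and LDHB, which favours the conversion of lactate to pyruvate, did not pass. LDHA, the subunit that favours lactate formation, had levels of 12.82, 12.77 and 12.82 in controls and of 12.21, 12.15 and 12.05 with aspirin. The control arrays were nearly identical and the fall of 1.59-fold was far larger than the spread (-0.67 ± 0.13, adjusted p = 0.00803). LDHB had 11.65, 11.69 and 11.49 against 11.47, 11.70 and 11.83, an overlap with a difference of 0.06 ± 0.15 (adjusted p = 0.827). SLC16A3, the lactate exporter MCT4, stood at 9.21, 9.73 and 9.76 in controls and at 10.08, 10.04 and 10.16 with aspirin. Its groups did not overlap, and the difference of 0.53 ± 0.17 (adjusted p = 0.0663) passed with the replicate block (adjusted p = 0.0281). SLC16A1, the transporter MCT1, was not above background.

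Windows around a listed start site are shown for 4 genes, so that a gene that rose can be seen beside 3 that fell. HIF1 is known to act on several glycolytic genes through sites with an ACGTG or GCGTG core. RefSeq lists 1 or more windows, from 250 bases before to 50 after a start site, for 36 of the 39 genes. Capitals mark every ACGTG or GCGTG on either strand, so CACGT and CACGC are marked as well, and neighbouring matches may overlap. PGK1 lies on the plus strand at chrX:78103998-78104297 of GRCh38.p14, PGAM1 on the plus strand at chr10:97427568-97427867, LDHA on the plus strand at chr11:18394313-18394612 (the first of 2 listed windows), and TKT, the transketolase that rose, on the minus strand at chr3:53255973-53256272.
PGK1: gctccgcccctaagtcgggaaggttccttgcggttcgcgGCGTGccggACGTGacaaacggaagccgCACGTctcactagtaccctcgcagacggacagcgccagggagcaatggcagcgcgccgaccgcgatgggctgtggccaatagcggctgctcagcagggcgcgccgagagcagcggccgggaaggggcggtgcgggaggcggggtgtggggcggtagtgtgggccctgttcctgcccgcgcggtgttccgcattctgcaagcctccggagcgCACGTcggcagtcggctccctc
PGAM1: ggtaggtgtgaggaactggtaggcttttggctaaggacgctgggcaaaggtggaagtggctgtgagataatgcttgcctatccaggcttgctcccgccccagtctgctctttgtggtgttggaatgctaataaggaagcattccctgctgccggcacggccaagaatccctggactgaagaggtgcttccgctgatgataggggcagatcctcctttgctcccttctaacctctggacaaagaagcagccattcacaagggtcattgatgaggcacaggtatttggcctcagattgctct
LDHA: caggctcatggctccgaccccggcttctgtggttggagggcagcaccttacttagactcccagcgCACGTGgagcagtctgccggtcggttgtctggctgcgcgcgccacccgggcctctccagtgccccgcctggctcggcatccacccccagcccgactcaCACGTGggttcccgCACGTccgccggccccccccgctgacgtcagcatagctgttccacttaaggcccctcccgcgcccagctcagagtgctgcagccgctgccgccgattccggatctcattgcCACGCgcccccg
TKT: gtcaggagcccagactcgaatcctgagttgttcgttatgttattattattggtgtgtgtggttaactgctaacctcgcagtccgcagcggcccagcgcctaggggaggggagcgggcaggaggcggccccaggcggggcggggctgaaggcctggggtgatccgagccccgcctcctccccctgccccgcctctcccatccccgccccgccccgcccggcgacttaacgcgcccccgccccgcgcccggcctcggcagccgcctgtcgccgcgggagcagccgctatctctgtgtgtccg
PGK1 held 4 matches and LDHA 6, in 4 marked stretches each, because a palindrome CACGTG is counted on both strands. PGAM1, which fell most, and TKT held 0 in these windows. Only 1 window is listed for PGAM1, and sequence outside it was not examined. ACGTG was present in 10 of the 16 windows of the 10 genes that fell (62.5%), in 0 of the 3 windows of the genes that rose, in 12 of 36 windows of those that did not pass (33.3%), and in 21.4% of all 35116 listed windows. GCGTG was present in 10 of the 16 windows of the genes that fell, in 1 of 3 of those that rose, in 16 of 36 of those that did not pass (44.4%) and in 36.5% of all windows. The palindrome CACGTG, which contains ACGTG on both strands, was present in 5 of the 16 windows of the genes that fell. It was present in 0 of 3 of those that rose, in 2 of 36 of those that did not pass and in 7.26% of all. Counted by gene, ACGTG was present for 7 of the 10 genes that fell, for 11 of the 20 with a window that did not pass and for 6790 of all 27305 genes, so the gap between genes that fell and those that did not pass was smaller than by window. GCGTG was present for 8 of these 10 genes, 14 of these 20 and 11077 of all, again a smaller gap than by window. For CACGTG the counts by gene were 5, 2 and 2396, here a larger gap in percentage points than by window. A match is a stretch of letters, not a measured binding site.

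At the entry of glucose HK2, the inducible hexokinase of many tumours, fell. Its levels were 8.50, 8.24 and 8.26 in controls and 7.91, 7.87 and 7.78 with aspirin, which did not overlap (-0.48 ± 0.14, adjusted p = 0.0388). The call was lost without any 1 of the 6 arrays (adjusted p up to 0.123). HK1, the constitutive hexokinase, had 10.54, 10.24 and 10.39 in controls and 10.63, 10.29 and 10.32 with aspirin, a difference of 0.02 that did not pass (adjusted p = 0.925 with a filter on the signal itself). SLC2A1, the basal glucose transporter GLUT1, had 12.22, 11.49 and 11.54 in controls and 11.41, 11.41 and 11.04 with aspirin. All aspirin arrays were lower, but control replicate 1 stood apart from the other controls and the difference of -0.46 ± 0.22 did not pass (adjusted p = 0.177). It was -0.23 without that array. SLC2A3, the high-affinity transporter GLUT3, differed by replicate and not by treatment, with 4.47 and 4.99 on both replicate 1 arrays and 6.95 to 7.12 on the other 4. It was not above background on control replicate 1, and its difference of 0.20 ± 0.75 (adjusted p = 0.886) was -0.64 without that array.

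Among the hexose phosphate steps the enzymes that set fructose-2,6-bisphosphate, the activator of phosphofructokinase, moved in both directions. PFKFB4 fell from 8.13, 8.45 and 8.31 to 7.61, 7.52 and 7.44 (-0.77 ± 0.14, adjusted p = 0.00709). PFKFB3, the isoform that chiefly makes the activator, fell from 9.0, 9.15 and 9.08 to 8.44, 8.73 and 8.42 (-0.55 ± 0.14, adjusted p = 0.0283). Both sets of arrays were apart. PFKFB2, known from heart, rose from 5.12, 5.44 and 5.50 to 5.97, 5.96 and 5.99 (0.62 ± 0.15, adjusted p = 0.0195). PFKFB2 is dim, and with the all-gene background its difference was 0.05 (adjusted p = 0.0591), while that of PFKFB4 was -0.35 with its call kept. The deposited signal of PFKFB2 in controls, 121.8 to 150.6 units, was below the mean of that background on each control array. PFKFB3 no longer passed when control 2, control 3, aspirin 1 or aspirin 3 was removed (adjusted p up to 0.101), nor did PFKFB2 when aspirin 2 or 3 was removed (up to 0.0674).

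The phosphofructokinases themselves showed no difference beyond their spread. PFKL, the liver-type subunit, differed by -0.03 ± 0.15, PFKM, the muscle-type, by 0.06 ± 0.18 and PFKP, the platelet-type, by 0.05 ± 0.16, with adjusted p from 0.863 to 0.927. Levels of all 3 genes overlapped between groups, for example 10.25, 10.08 and 10.50 in controls against 10.30, 10.20 and 10.48 with aspirin for PFKP. The signs of PFKM and PFKP turned with median scaling. GPI, the isomerase that links glucose-6-phosphate to fructose-6-phosphate, had 10.45, 9.96 and 10.44 against 9.92, 9.81 and 10.11, a difference of -0.34 ± 0.17 that did not pass (adjusted p = 0.213).

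Of the pyruvate dehydrogenase complex, PDHB, the beta subunit of the E1 component, fell. It had 10.18, 10.32 and 10.16 in controls and 9.63, 9.78 and 9.64 with aspirin, and the pairs differed by -0.55, -0.54 and -0.52 (-0.54 ± 0.13, adjusted p = 0.0219). It no longer passed when control 2, control 3, aspirin 1 or aspirin 3 was removed (adjusted p up to 0.0764). PDHA1, the alpha subunit with which it pairs, had a difference of 0.09 ± 0.15 (adjusted p = 0.712) and DLAT, the E2 component, one of 0.20 ± 0.14 (adjusted p = 0.346). Levels of both genes overlapped between the groups.

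In the pentose phosphate pathway 2 of 5 genes tested rose and 0 fell, beside 10.5% and 9.72% of all genes tested. The median difference was 0.44. TKT, the transketolase that links the pathway back to glycolysis, stood at 11.50, 11.33 and 11.42 in controls and at 11.86, 11.97 and 11.94 with aspirin (0.51 ± 0.13, adjusted p = 0.0253). PGLS, the lactonase of the oxidative branch, went from 9.95, 9.55 and 9.62 to 10.32, 10.15 and 10.17 (0.51 ± 0.15, adjusted p = 0.0477). In both genes every aspirin array exceeded every control. PGD, the NADPH-forming 6-phosphogluconate dehydrogenase, had 10.48, 10.27 and 10.41 against 10.67, 10.78 and 10.69, and RPIA, the isomerase that makes ribose-5-phosphate, 7.86, 7.70 and 7.62 against 7.93, 8.48 and 8.10. Neither overlapped between groups and neither passed (PGD 0.33 ± 0.13, adjusted p = 0.112; RPIA 0.44 ± 0.17, adjusted p = 0.108). Under the all-gene background PGD passed at 0.41 (adjusted p = 0.0372).

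The remaining enzymes of the branch had differences below 0. TALDO1, the transaldolase that works in sequence with transketolase, had 11.27, 11.17 and 10.95 in controls and 11.02, 10.76 and 10.71 with aspirin (-0.31 ± 0.15, adjusted p = 0.195). RPE, the epimerase, had 7.63, 7.499 and 7.20 against 7.09, 7.01 and 6.88. It missed the detection filter, and a filter on the signal itself gave -0.45 (adjusted p = 0.0652). The rises of the pathway depended on the scaling. With median scaling TKT changed by 0.33 (adjusted p = 0.190) and PGLS by 0.36 (adjusted p = 0.157), so that both calls were lost. PGLS lost its call under the all-gene background as well, where TKT kept it (0.56). Over all genes 1589 rose and 1470 fell with quantile normalisation, against 1026 and 1522 with median scaling. TKT also missed the threshold when replicate 2 or 3 of either group was removed (adjusted p up to 0.0822), and PGLS when any 1 array other than control replicate 1 was (up to 0.144).

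**Figure D3:**
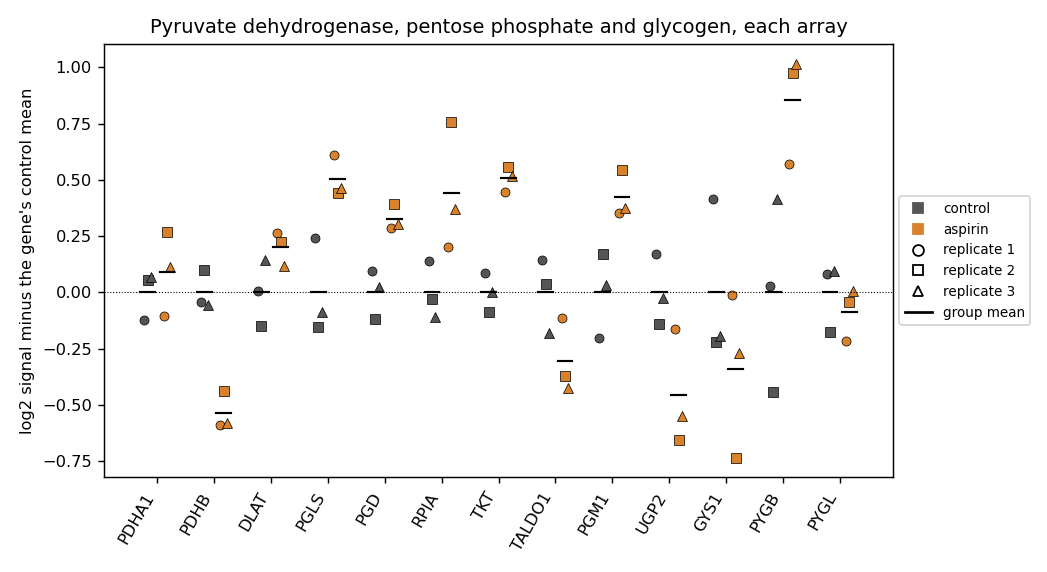
Level of each gene of pyruvate dehydrogenase, the pentose phosphate pathway and glycogen metabolism on each array, as log2 signal minus the control mean of the gene (y axis), with controls in grey, aspirin in orange, a marker shape per replicate and group means as lines. Aspirin arrays lie above the controls for PGLS, PGD, RPIA, TKT, PGM1 and PYGB and below them for PDHB and UGP2.

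Among the genes of glycogen metabolism PYGB, the brain-type phosphorylase that releases glucose-1-phosphate, rose. Its levels were 9.44, 8.97 and 9.83 in controls and 9.98, 10.39 and 10.43 with aspirin, a 1.81-fold rise (0.85 ± 0.23, adjusted p = 0.0330). The 3 pairs ranged widely, at 0.54, 1.42 and 0.60, so that it was 0.57 on chip 1. PYGL, the liver-type phosphorylase, had a difference of -0.09 ± 0.14 (adjusted p = 0.721) with overlapping levels of 11.10 to 11.37 in controls and 11.06 to 11.28 with aspirin. PYGB no longer passed when control 1, control 2, aspirin 2 or aspirin 3 was removed (adjusted p up to 0.112), with median scaling (adjusted p = 0.0726) or under the all-gene background (1.15, adjusted p = 0.0933).

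PGM1, the phosphoglucomutase between glucose-1-phosphate and glucose-6-phosphate, had 10.18, 10.55 and 10.41 against 10.73, 10.92 and 10.75 (0.42 ± 0.15, adjusted p = 0.0768). UGP2, which makes the UDP-glucose used for glycogen, had 8.83, 8.52 and 8.63 against 8.49, 8.003 and 8.11 (-0.46 ± 0.17, adjusted p = 0.0935). Neither gene overlapped between groups, and both passed with the replicate block, PGM1 as higher (adjusted p = 0.0285) and UGP2 as lower (adjusted p = 0.0212). GYS1, the glycogen synthase outside liver, was dim, with 5.99, 5.36 and 5.38 against 5.56, 4.84 and 5.31, and did not pass (-0.34 ± 0.24, adjusted p = 0.357).

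Isozymes of the same step were set against each other as the log2 ratio within each array, for 11 pairs chosen by step. With 3 arrays against 3 an exact permutation test cannot go below p = 0.10, so no pair can pass and the ratios are given as values. LDHA over LDHB was 1.17, 1.08 and 1.34 in controls and 0.74, 0.45 and 0.22 with aspirin, a shift of -0.73 towards LDHB (exact permutation p = 0.10, two-sided, 0.18 adjusted over the 11 pairs). PYGL over PYGB went from 1.92, 2.13 and 1.54 to 1.08, 0.85 and 0.86, a shift of -0.94. PFKFB2 over PFKFB3 shifted by 1.17, ENO2 over ENO1 by 1.13 and HK2 over HK1 by -0.51, values that became 0.56, 0.44 and -0.29 under the all-gene background. All of these ratios, and no other pair of genes above background, had groups that did not overlap. PFKP over PFKL (0.08), PFKM over PFKL (0.08), PFKFB4 over PFKFB3 (-0.22, turned to 0.16 under the all-gene background), ALDOC over ALDOA (0.60) and SLC2A3 over SLC2A1 (0.66) overlapped. SLC16A3 over SLC16A1 says nothing of isozymes because SLC16A1 was at background.

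**Figure D4:**
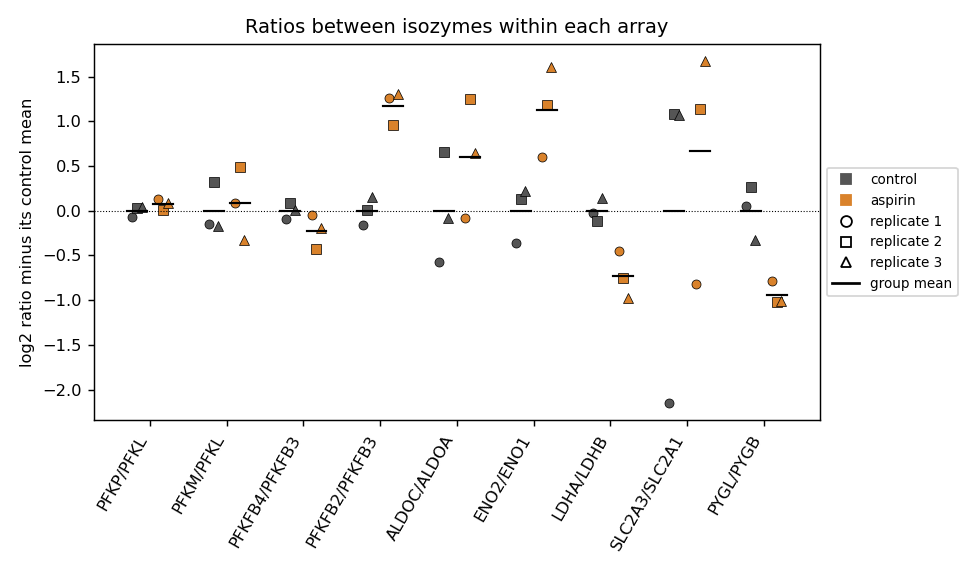
Log2 ratio between isozymes of a step within each array, minus its control mean (y axis), for the 9 pairs in which both genes passed the detection filter, with controls in grey, aspirin in orange, a marker shape per replicate and group means as lines. The groups are apart for PFKFB2/PFKFB3, ENO2/ENO1, LDHA/LDHB and PYGL/PYGB; for SLC2A3/SLC2A1 both replicate 1 arrays lie far below the others.

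Beyond the 39 genes, a list of 58 other genes of these pathways was examined, of which 57 were in the table and 34 were tested. 5 of them rose, 4 fell and 25 did not pass, where 10.5% of all genes tested rose and 9.72% fell, so these counts are near the background. They were 8 higher and 5 lower with the replicate block (17.5% and 15.7% of all genes), the added genes being PGM2L1, PHKA1 and PHKG2 as higher and PC as lower. FBP1, the fructose-1,6-bisphosphatase that runs against phosphofructokinase in gluconeogenesis, was above background on all controls (7.06, 7.60 and 7.12) and on no aspirin array (4.79, 4.71 and 4.49). Under the main processing it was at least 5.42-fold lower with aspirin. The size depends on the background setting: the difference was -1.12 without background correction and -1.66 with an offset of 50. FBP1 passed the detection filter only through the controls, where it is high. Its adjusted p of 0.000197 has to be read with that limit.

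Around pyruvate dehydrogenase PDK3, a kinase that switches the complex off, fell (-1.38 ± 0.32, adjusted p = 0.0182), PPM2C, the phosphatase now named PDP1 that switches it on, rose (0.92 ± 0.19, adjusted p = 0.0125), and BRP44L, the mitochondrial pyruvate carrier subunit now named MPC1, rose (0.86 ± 0.19, adjusted p = 0.0144). Other genes of this step did not pass: BRP44, the partner subunit of the carrier, had a difference of -0.38 with all aspirin arrays below the controls (adjusted p = 0.166), the kinase PDK2 one of 0.04 (adjusted p = 0.902) and the phosphatase PDP2 one of 0.11 (adjusted p = 0.677). In glycogen metabolism GYG1, the glycogenin that primes glycogen, rose from 9.85, 9.75 and 9.83 to 10.53, 10.65 and 10.67 (0.81 ± 0.13, adjusted p = 0.00377), and GBE1, the branching enzyme, fell (-0.72 ± 0.14, adjusted p = 0.00841). The glucose transporter SLC2A12 rose (1.45 ± 0.31, adjusted p = 0.0136), as did the muscle-type enolase ENO3 (0.94 ± 0.22, adjusted p = 0.0181), and the hexokinase HKDC1 fell (-0.87 ± 0.23, adjusted p = 0.0277). Among these genes FBP1, GYG1 and GBE1 passed without any 1 array. The others each depended on single arrays: PDK3 and HKDC1 on control replicates 2 and 3, SLC2A12 and PPM2C on aspirin replicate 3, BRP44L on control replicate 3 and aspirin replicate 3, and ENO3 on control replicate 3 and aspirin replicates 2 and 3. With the all-gene background PDK3, SLC2A12, ENO3 and HKDC1 lost their calls at differences of -0.19, 0.34, 0.16 and -0.10, FBP1 changed by -0.30, PPM2C by 0.16 and GBE1 by -0.35.

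Of 12 regulators of sugar use, 8 were tested, 2 rose, 0 fell and 6 did not pass, beside 10.5% and 9.72% of all genes tested. ARRDC4, an arrestin related to TXNIP that limits glucose uptake, rose from 5.88, 6.28 and 6.002 to 7.43, 6.96 and 6.98 (1.07 ± 0.18, adjusted p = 0.00528), though by only 0.17 with the all-gene background. ESRRA, a nuclear receptor of oxidative metabolism, rose by 1.13 ± 0.26 (adjusted p = 0.0171), but missed the threshold when control replicate 2, control replicate 3 or aspirin replicate 3 was removed (up to 0.0620) and under the all-gene background (0.0677). HIF1A, the oxygen-regulated subunit of HIF1, had 9.14, 8.74 and 8.98 in controls and 8.64, 8.24 and 8.40 with aspirin. Its difference of -0.53 ± 0.17 did not pass (adjusted p = 0.0558) but passed as lower with the replicate block (adjusted p = 0.0110). Neither TXNIP, which limits glucose uptake as well (0.68 ± 0.33, adjusted p = 0.187), nor MYC (0.44 ± 0.18, adjusted p = 0.127) passed.

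Over the 35 genes tested, 28 had differences of the same sign in all 3 same-numbered pairs. That is fixed wherever the groups do not overlap, as for the 9 genes with all aspirin arrays above the controls and the 14 with all below. The same count over all genes is not given. With the replicate number as a block, 11 of the 35 genes fell and 7 rose (31.4% and 20%, against 15.7% and 17.5% of all genes). With the chip as a block 10 fell and 4 rose, beside 10.7% and 11.6% of all genes. The median difference of the 35 genes was -0.16 on the chip 1 arrays and -0.05 in the chip 2 pair. Of the 14 genes that rose or fell in the main fit 5, namely PGK1, PGAM1, TPI1, LDHA and PFKFB4, passed without any 1 of the 6 arrays. Only PGK1 and PGAM1 passed on the chip 1 arrays alone, and only PGK1 without both replicate 3 arrays.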

How the data were processed

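The series holds 6 Illumina arrays, 3 control and 3 aspirin, grouped by their titles. The authors deposited a signal intensity per gene and array; the array medians differ, so no scaling between arrays is visible. The submitters' processing notes name GenomeStudio 1.9.0, and neither a build nor a probe annotation is stated there. The detection columns are headed as p-values per the file headers but are high for bright genes (mean 0.994 over the brightest genes, 0.170 over the dimmest), so the deposited values were treated as a detection score, that is 1 minus p. How the probes of a gene were combined is not given, so cross-hybridisation with pseudogenes, which several glycolytic genes have, could not be examined. The deposited matrix holds the same intensity minus a constant per array, with names shifted for part of its rows; it served, realigned, only as an alternative.

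Background was removed with normexp, its mean and SD being inferred from the detection scores of the 27647 genes on whole steps of 1 in 770. After adding 16 as offset, the arrays were quantile normalised and put on the log2 scale (limma 3.58.1, R 4.3.3). 1 gene listed at 0 was dropped. Genes scoring above 0.95 on 3 or more arrays were tested by lmFit and eBayes without covariates, 15128 in all (43.6%), with Benjamini-Hochberg adjustment and a threshold of 0.05. A gene was called above background on an array with a score above 0.95 or a signal over the background mean plus 3 SD. For a gene above background in 1 group only, the fold is a bound against the higher of its own level and the lowest detected level on each array. Such a bound holds for the main processing only. The pipeline was tested on simulated data.

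All members are named; of the lists of other pathway genes and regulators, the genes past the threshold are named. Genes of these lists and cell type markers named beyond that were chosen after their values were seen, and 1 gene is not reported here. Members, lists, pairs of isozymes and the promoter windows shown were chosen with earlier results of these data known. Gene symbols are those of the table, and 38 of the 39 match a current RefSeq symbol and 1, PKM2, a synonym. Deviations of same-numbered arrays from their group means correlated at 0.508, 0.516 and 0.320. Differently numbered arrays were not compared, and same-numbered arrays shared a chip. Whether the numbers pair the arrays was therefore not tested, and the labels do not state it. Reported values come from the model without a block; blocking on replicate was an alternative. The number of arrays limits the precision.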

Additional observations from a re-analysis of the deposited data

How the results depend on the processing

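As reported, the set had 4 genes higher, 10 lower and a median of -0.10, and 3059 genes were called in all. The number higher was 2 with the all-gene background and with no filter, 1 with the deposited background-subtracted values and with median scaling, and 7 without background correction, with an offset of 50 and with the replicate block. On the chip 1 arrays alone it was 0, with 2 lower, a median of -0.16 and 859 genes called (2.67% of all genes higher and 3.01% lower). The median was -0.25 with median scaling and -0.15 with cyclic loess, where it was -0.033 and 0.0031 over all genes tested. The replicate block called 5020 genes; beside the changes given for ENO2, SLC16A3, PGM1 and UGP2 it changed no call of the 35 genes. Leaving out single arrays or same-numbered pairs gave 0 to 6 genes higher, 1 to 9 lower, medians of -0.17 to -0.020 and 440 to 3149 genes called. The lowest counts came from leaving out both replicate 3 arrays. Without aspirin replicate 3 there were 0 higher, 5 lower and 1783 called, without control replicate 3 2, 5 and 1865, without aspirin replicate 2 0 higher and 2033 called, and without control replicate 2 1 higher.

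Of 767 values of the 35 genes under these alternatives, 632 kept direction and side of the threshold, 92 lost a call, 19 gained one and 24 changed sign, all of the latter for genes that did not pass. The chip 1 setting and the one without both replicate 2 arrays use the same arrays, so these counts hold that fit 2 times. With median scaling PFKM became -0.054, PFKP -0.096, LDHB -0.12 and PDHA1 -0.070; with cyclic loess PFKP became -0.0018 and LDHB -0.015; on chip 1 alone PFKM became -0.073. Without single arrays or pairs SLC2A3 ranged from -0.64 to 0.88, PFKL from -0.14 to 0.064, PFKM from -0.12 to 0.20, PFKP from -0.049 to 0.16, ALDOC from -0.30 to 0.11, LDHB from -0.085 to 0.18 and PYGL from -0.19 to 0.022. The cause was not tested. Signals near background limit dim genes such as SLC2A3, PFKFB2, ENO2, GYS1 and ARRDC4.

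Among the isozyme ratios the all-gene background gave -0.29 for HK2/HK1, 0.16 for PFKFB4/PFKFB3, 0.56 for PFKFB2/PFKFB3, 0.44 for ENO2/ENO1, 0.72 for SLC16A3/SLC16A1 and -1.25 for the isozyme ratio PYGL/PYGB, and median scaling -0.018 for PFKP/PFKL. Without single arrays or pairs PFKP/PFKL ranged from 0.013 to 0.12 and SLC16A3/SLC16A1 from 0.22 to 0.61, and the sign of SLC2A3/SLC2A1 and of PFKM/PFKL turned in at least 1 of these.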
